A study of Mus musculus with 46 samples.

Results

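RNA on tagged ribosomes of AgRP neurons was compared with that of POMC neurons of the arcuate nucleus after an overnight fast. The libraries were chosen by their labels, 4 of the AgRP line (AgRP fasted replicates 1 to 4) and 2 of the POMC line (POMC fasted replicates 1 and 2), out of 46 samples in the series. Of 31854 genes in the count table, 13412 had a mean over 1 CPM (a gene's counts scaled to a common library total) across these 6 libraries and were tested. All mice were males on a C57BL/6J background with a NuTRAP cassette that makes a GFP-tagged ribosomal protein L10a wherever Cre has acted. The AgRP line carried AgRP-IRES-Cre and the POMC line POMC-IRES-Cre. The place of insertion of each Cre is not given in the sources used here. Fasted mice received PBS by intraperitoneal injection. Each library of the AgRP line came from 4 arcuate nuclei pooled, of mice 6 to 11 weeks old, and the labels used here name only that line for the pooling and the age, so neither is known for the POMC line. Fed libraries of the same lines, 3 of AgRP and 2 of POMC, and ATAC-seq of nuclei sorted as positive or negative for the AgRP line's tag, with 2 libraries of each kind, are used for comparison. Because Pomc is also transcribed in immature arcuate neurons that later take other fates, the POMC line can tag cells that no longer make Pomc. In bulk libraries such as these, fewer cells of a type and less RNA per cell cannot be told apart.

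AgRP and POMC neurons lie side by side in the arcuate nucleus and act against each other on food intake. AgRP neurons release agouti-related peptide, neuropeptide Y and GABA, are active in hunger and drive feeding. POMC neurons cut the POMC precursor into melanocortins such as α-MSH, which act on the melanocortin-4 receptor to lower food intake, and AgRP blocks that receptor. Both respond to leptin, ghrelin and other signals of the body's energy stores.

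Promoters of 5 genes are printed because their genes differed between the lines and they show what lies upstream of each marker: Npy (the co-transmitter of AgRP neurons), Corin and Serpina3c, higher in the AgRP line, and Pomc and Cartpt, lower in it. Each runs from 250 bases before the RefSeq transcript start to 50 bases after it, 5′ to 3′ on the gene's strand, in GRCm38.p6. The positions are chr6:49822460-49822759 (Npy, plus strand), chr5:72504491-72504790 (Corin, minus strand), chr12:104153823-104154122 (Serpina3c, minus strand), chr12:3954695-3954994 (Pomc, plus strand) and chr13:99900634-99900933 (Cartpt, minus strand). Capitals mark matches, on either strand, to 5 motifs. The homeodomain core was TAATTA. The TATA box was TATAAA. The E-box of basic helix-loop-helix factors was CATCTG. The cyclic AMP response element was TGACGTCA. The STAT site was TTCNNNGAA.
Npy: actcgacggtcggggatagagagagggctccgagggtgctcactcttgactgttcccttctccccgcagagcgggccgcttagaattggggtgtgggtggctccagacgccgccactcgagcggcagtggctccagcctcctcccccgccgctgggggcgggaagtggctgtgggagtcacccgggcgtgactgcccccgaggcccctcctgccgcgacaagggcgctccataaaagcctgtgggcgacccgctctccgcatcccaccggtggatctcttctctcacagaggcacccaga
Corin: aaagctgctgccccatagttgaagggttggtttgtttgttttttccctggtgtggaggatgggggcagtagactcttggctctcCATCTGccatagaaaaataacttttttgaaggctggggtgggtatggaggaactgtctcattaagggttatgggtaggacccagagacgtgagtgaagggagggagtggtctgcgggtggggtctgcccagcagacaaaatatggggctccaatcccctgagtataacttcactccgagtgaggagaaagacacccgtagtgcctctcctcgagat
Serpina3c: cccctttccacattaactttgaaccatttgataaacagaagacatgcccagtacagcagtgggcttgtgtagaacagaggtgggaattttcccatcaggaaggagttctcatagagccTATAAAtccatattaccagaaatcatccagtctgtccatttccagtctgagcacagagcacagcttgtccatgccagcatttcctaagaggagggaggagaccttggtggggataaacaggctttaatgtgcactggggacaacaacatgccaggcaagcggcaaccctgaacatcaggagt
Pomc: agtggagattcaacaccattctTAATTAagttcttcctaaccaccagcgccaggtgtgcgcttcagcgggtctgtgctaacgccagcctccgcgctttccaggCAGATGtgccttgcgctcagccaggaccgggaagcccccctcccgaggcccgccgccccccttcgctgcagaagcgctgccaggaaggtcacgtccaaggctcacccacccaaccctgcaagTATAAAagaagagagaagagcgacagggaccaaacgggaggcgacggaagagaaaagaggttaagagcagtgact
Cartpt: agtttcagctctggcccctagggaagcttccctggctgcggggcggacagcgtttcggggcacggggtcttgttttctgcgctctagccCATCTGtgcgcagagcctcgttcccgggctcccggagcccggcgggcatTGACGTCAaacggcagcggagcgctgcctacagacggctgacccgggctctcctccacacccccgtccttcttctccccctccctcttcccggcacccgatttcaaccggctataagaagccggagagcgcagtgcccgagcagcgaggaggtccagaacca
The Pomc window held the homeodomain core, the TATA box and, as its reverse complement, the E-box, the TATA box beginning at -25 from the transcript start. The Cartpt window held the E-box and the cyclic AMP response element, the latter beginning at -112. Corin held the E-box and Serpina3c the TATA box, at -132, while none of these letters occurred in the Npy window.

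Total counts ran from 30229209 to 49641033 in the AgRP fasted libraries and from 30704075 to 33424504 in the POMC fasted libraries. AgRP replicate 4 and POMC replicate 2 stood apart from the others of their line. The summed level of 11 astrocyte markers was 3197, 3874 and 3301 CPM in AgRP replicates 1 to 3 and 26844 in replicate 4, against 7344 and 28626 in POMC replicates 1 and 2. Slc1a2, the main glutamate transporter of astrocytes, made up most of that sum, at 2379, 2871, 2363 and 25506 CPM against 6232 and 26918. The astrocyte marker Aldh1l1 did not follow Slc1a2. Gfap measured 33.7, 35.6, 37.4 and 34.2 CPM in the AgRP libraries, with no rise in replicate 4. In the POMC libraries it measured 32.6 and 47.7 CPM, higher in replicate 2. These 2 markers do not stand for the rest of the list. No astrocyte marker of 11 was called between the lines, and the list's median log2 difference was -0.31. In the same order of libraries, microglial markers summed to 23.2, 21.7, 23.6 and 44.8 CPM against 28.3 and 61.8, and oligodendrocyte markers to 616, 680, 581 and 911 CPM against 579 and 1217. Tanycyte and ependymal markers summed to 181, 157, 178 and 329 CPM against 258 and 277, vascular markers to 156, 227, 167 and 114 against 201 and 214, and pituitary markers to 12.6, 26.6, 17.8 and 12.4 against 20.6 and 29.7. In these lists only Cspg4 of 13 oligodendrocyte genes tested, Sox2 of 12 tanycyte and ependymal genes and Tbx19 of 5 pituitary genes were lower in the AgRP line. Over all genes tested 4.59% were higher and 2.88% lower, and no gene of 7 microglial or 12 vascular genes was called. Counts or list medians are therefore also given without AgRP replicate 4 and POMC replicate 2, which leaves 3 libraries against 1. In that fit the spread comes from the 3 AgRP libraries only and the lone POMC library is assumed to vary like them, so its counts and p-values hold no check of the POMC arm. The list medians in it were -0.01 for astrocyte, -0.43 for tanycyte and ependymal, -0.01 for oligodendrocyte and 0.23 for microglial genes. Without AgRP replicate 4 alone, 4 astrocyte, 6 tanycyte and ependymal, 3 oligodendrocyte genes and 1 microglial gene were lower in the AgRP line and 1 tanycyte or ependymal gene was higher. Over all 13428 genes tested in that setting, 1384 were higher and 1677 lower.

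**Figure D1:**
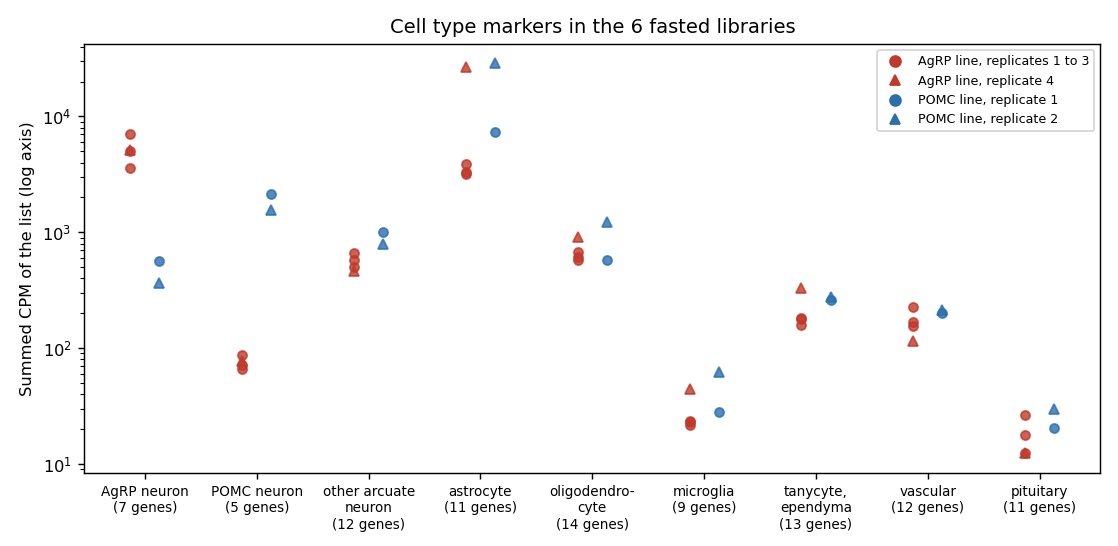
Summed CPM (log axis) of 9 cell type marker lists in each of the 6 fasted libraries, AgRP in red and POMC in blue, with AgRP replicate 4 and POMC replicate 2 as triangles. The AgRP and POMC neuron lists separate the lines, and the triangles sit at 26844 and 28626 CPM in the astrocyte list while the circles lie between 3197 and 7344.

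After the fast, 615 genes were higher (4.59% of those tested) and 386 were lower (2.88%) in the AgRP line than in the POMC line. Counts of called members in the gene lists are to be read against these shares. A gene was called at a Benjamini-Hochberg adjusted p (edgeR quasi-likelihood test) below 0.05 with a log2 fold change beyond 0.5 in size, as the study did. Differences are given as AgRP minus POMC on the log2 scale with their standard error, and levels as CPM scaled by TMM factors. The median over all genes tested was -0.03. Of the called genes 338 were higher and 168 lower by more than 1 on the log2 scale, and 31 and 9 by more than 3. In every called gene the AgRP and POMC libraries did not overlap, as was so for 2460 genes (18.3%) in the higher and 2184 (16.3%) in the lower direction among all tested. Without AgRP replicate 4 and POMC replicate 2 the counts were 1187 higher (8.86%) and 1368 lower (10.2%), the higher genes no longer being the more numerous, and included 581 of the 615 and 368 of the 386. POMC replicates 1 and 2 carry the whole POMC arm: without replicate 1 there were 252 higher and 91 lower genes, and without replicate 2 there were 244 and 165. Leaving out single AgRP libraries gave 271 and 131 (replicate 1), 324 and 189 (replicate 2), 266 and 135 (replicate 3) and 1384 and 1677 (replicate 4).

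The markers of each line separated the libraries as labelled. Agrp measured 725, 1449, 1972 and 1153 CPM in the AgRP libraries and 27.5 and 10.9 CPM in the POMC libraries, a difference of 6.11 ± 0.64 (SE, adjusted p = 0.00272). Npy measured 868, 1864, 2948 and 2062 CPM against 52.1 and 19.8, a difference of 5.75 ± 0.71 (adjusted p = 0.00518). AgRP replicate 1 was the lowest of its line for both peptides, and still stood far above either POMC library. Pomc showed the opposite order, with 20.0, 17.3, 27.0 and 28.9 CPM in the AgRP line and 1502 and 1126 in the POMC line, a difference of -5.82 ± 0.26 (adjusted p = 1.9662e-04). Cartpt, whose peptide CART is released by POMC neurons, measured 34.2, 38.1, 45.5 and 38.6 CPM against 513 and 365, a difference of -3.49. Anxa2 of the POMC list was lower by a difference of -1.94, and Ttr of that list, at 0.19 (adjusted p = 0.847), was not called. All 7 AgRP neuron markers were higher and 4 of the 5 POMC markers tested were lower, but several of these markers were named by the study from the same libraries, so the counts are not independent evidence of direction. Over 12 markers of other arcuate neurons 1 gene was higher, Sst at 2.03, and Pdyn (-1.85), Nr5a1 (-1.11) and Ddc (-0.69) were lower. Among all genes tested 4.59% were higher and 2.88% lower. Sst was not called without POMC replicate 1 (adjusted p = 0.0735). Nr5a1 missed the threshold without any one of 5 libraries, at an adjusted p of up to 0.189, and Ddc without any of 4, at up to 0.151.

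**Figure D2:**
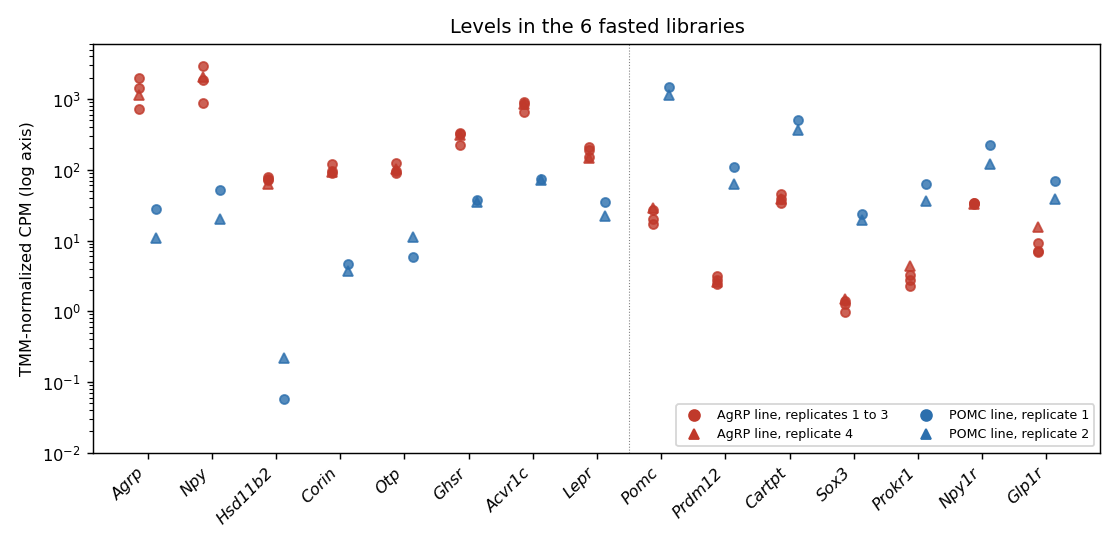
TMM-normalized CPM (log axis) of 15 genes in each of the 6 fasted libraries, AgRP in red and POMC in blue. The red points lie above the blue ones for the genes left of the dotted line, such as Hsd11b2 (63.5 to 77.8 against 0.0582 and 0.217 CPM), and below them for those right of it.

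Hsd11b2 had the largest difference of all genes tested. It encodes 11β-hydroxysteroid dehydrogenase type 2, which inactivates corticosterone and so keeps it from the mineralocorticoid receptor. Its level was 73.8, 71.4, 77.8 and 63.5 CPM in the AgRP libraries and 0.0582 and 0.217 CPM in the POMC libraries, a difference of 9.06 ± 0.38 (adjusted p = 1.9662e-04). The AgRP libraries were close to each other, and the POMC libraries were near 0, with 2 and 6 counts, so the size of the difference rests on few counts. It was 10.23 with the 3 libraries against 1. Among 10 genes of corticosteroid action, Nr3c1 (the glucocorticoid receptor, 0.87) and Sgk1 (a kinase induced by corticosteroids, 1.28) were also higher and none was lower. Over all genes 4.59% were higher and 2.88% lower. The mineralocorticoid receptor Nr3c2, at 0.32 (adjusted p = 0.343), and Hsd11b1, which works in the reverse direction to Hsd11b2, at -0.11 (adjusted p = 0.786), were not called. Nr3c1 was lost without either POMC library, at an adjusted p of up to 0.0710.

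Other genes with the largest differences encode enzymes, receptors and regulators. Corin, a membrane protease that activates natriuretic peptides, measured 88.8, 94.9, 122 and 94.3 CPM against 4.63 and 3.66, a difference of 4.59 ± 0.22 (adjusted p = 1.9662e-04). Lyve1, a hyaluronan receptor best known from lymphatic vessels, measured 33.9, 21.2, 36.4 and 18.3 CPM against 1.05 and 0.761, a difference of 4.91. Klf14, a zinc finger transcription factor, and Vipr1, a receptor for vasoactive intestinal peptide, were higher by 4.48 and 4.26, with all AgRP libraries between 11.5 and 17.5 CPM and all POMC libraries below 1. Sphk1, which makes sphingosine-1-phosphate, was higher by 4.67, and Svs2, known as a seminal vesicle protein, by 6.22 ± 0.96. Svs2 varied within the AgRP line (23.1, 14.4, 13.9 and 5.47 CPM) and had 12 counts in POMC replicate 1 and 0 in replicate 2. Without POMC replicate 2 neither was called, at an adjusted p of 0.0570 for Svs2 and 0.0531 for Sphk1. The transcript 1700016L04Rik had 249 counts in the AgRP libraries and 2 in the POMC libraries, a ratio of 47.9 with a 95% exact interval of 13.1 to 398 that covers counting error only.

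On the POMC side, Prdm12, a transcription factor needed to switch on Pomc, measured 3.19, 2.39, 2.74 and 2.63 CPM in the AgRP libraries against 110 and 62.6, a difference of -4.98 ± 0.24 (adjusted p = 1.9662e-04). Sox3, a transcription factor of the hypothalamic and pituitary primordium, measured 1.42, 0.964, 1.29 and 1.47 CPM against 23.5 and 19.4 (-4.07). Prokr1, a prokineticin receptor, differed by -3.97, and the RNA D330045A20Rik by -3.92. The peptide genes Nms (neuromedin S, -3.40) and Nppc (C-type natriuretic peptide, -2.81), the growth factor gene Fgf16 (-3.47) and Cdc20b (-3.29) completed the 10 largest differences in this direction. POMC replicate 1 was higher than replicate 2 for all 10 of these genes. The same order held for Pdyn, Npy1r and Glp1r.

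Of 38 arcuate and hypothalamic transcription factors tested, 5 were higher and 9 lower in the AgRP line, where 4.59% of all genes were higher and 2.88% lower. The list's median was -0.36, and -0.10 without AgRP replicate 4 and POMC replicate 2. Besides Klf14, the homeobox gene Otp was higher (91.4, 96.5, 124 and 104 CPM against 5.94 and 11.3; 3.59 ± 0.30), as were Nr5a2 (1.62), Bsx (1.48), a homeobox gene that acts on Agrp and Npy, and Insm1 (0.81). Those lower included Nhlh2 (-2.44), a basic helix-loop-helix factor, and Nkx2-1 (-2.13), which patterns the ventral hypothalamus and was at 7.05, 8.68, 7.44 and 9.37 CPM against 39.6 and 31.4. Esr1, the estrogen receptor, was lower by a difference of -1.30, Six6 of -1.27, Sox2 of -1.05 and Tbx3 of -0.97. Isl1, which is used by both neuron types, was not called, at 0.39 (adjusted p = 0.344). Of the 14 called, 8 kept their call without any 1 library (Klf14, Otp, Nr5a2, Nhlh2, Nkx2-1, Prdm12, Sox2 and Sox3), and Bsx was not called without POMC replicate 1 (adjusted p = 0.0733).

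Among 33 neuropeptide genes tested, 6 were higher and 6 lower (median -0.05), where 4.59% of all genes were higher and 2.88% lower. In addition to Agrp, Npy and Sst, the higher genes were Nts (neurotensin, 2.54), Nmb (neuromedin B, 2.20) and Nucb2 (the precursor of nesfatin-1, 1.15). Nts measured 51.9, 31.8, 30.8 and 20.5 CPM against 5.27 and 6.37, and was not called without either POMC library (adjusted p up to 0.0760). Nmb missed the threshold without AgRP replicate 1 or POMC replicate 2, at up to 0.0650. Pdyn, the dynorphin precursor, measured 117, 97.7, 119 and 91.7 CPM against 505 and 261, a difference of -1.85, and Npvf was lower by a difference of -0.92. Of the 12 called, Agrp, Npy, Pomc, Cartpt, Pdyn and Nppc kept their call without any 1 library, where a gene that fell under the level filter counts as lost. With the 3 libraries against 1, the median of the neuropeptide genes was 0.32.

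Genes that process and store peptides, and those of other transmitters, are next, where over all genes 4.59% were higher and 2.88% lower. Of 17 granin and peptide processing genes, Vgf (2.10) and Ctsl (0.76) were higher and Pcsk5 (-1.01) was lower (list median 0.23). Vgf, a secreted granin-like precursor, measured 1555, 1875, 2309.6 and 1497 CPM against 404 and 441. Its adjusted p was up to 0.0656 without a POMC library, that of Pcsk5 up to 0.0588 and that of Ctsl up to 0.188 without any of 5 libraries. Of 17 transmitter genes, Slc18a3, the vesicular acetylcholine transporter, was higher by 2.24, and Slc18a2, the vesicular monoamine transporter, was lower by a difference of -1.95, beside Ddc (list median -0.22). Slc32a1, which loads GABA into vesicles, measured 245, 274, 276 and 222 CPM against 85.1 and 174, and at 0.97 (adjusted p = 0.0771) was not called. Without AgRP replicate 4 and POMC replicate 2, in a fit with no spread in the POMC arm, its difference was 1.62. Gad1 (0.43, adjusted p = 0.138) and the vesicular glutamate transporter gene Slc17a6 (-0.69, adjusted p = 0.160) were not called.

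Receptors for feeding-related signals separated into those higher in each line. Of 57 tested, 7 were higher (12.3%, against 4.59% of all genes) and 11 lower (19.3%, against 2.88%), with a median of -0.45. Ghsr, the ghrelin receptor, measured 327, 227, 321 and 307 CPM in the AgRP libraries against 37.5 and 35.2 in the POMC libraries (3.02 ± 0.20, adjusted p = 7.0703e-04). Lepr, the leptin receptor, measured 193, 153, 208 and 148 CPM against 34.9 and 22.2 (2.62 ± 0.25, adjusted p = 0.00194). Ghr, the growth hormone receptor, measured 530, 454, 615 and 517 CPM against 80.5 and 53.2 (2.98 ± 0.24). For these receptors the lowest AgRP library exceeded the highest POMC library by a wide margin. Acvr1c, the activin receptor ALK7, was higher by 3.50, Crhr1 by 1.70 and Calcr, the calcitonin receptor through which amylin can act, by 1.60.

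The receptors lower in the AgRP line included the neuropeptide Y receptors Npy1r and Npy5r. Npy1r measured 34.1, 34.0, 33.3 and 32.5 CPM against 226 and 121 (-2.38 ± 0.21, adjusted p = 0.00173), and Npy5r 11.3, 10.1, 10.6 and 8.62 CPM against 55.2 and 29.5 (-2.06). Cckar, a cholecystokinin receptor, was lower by a difference of -2.76. Glp1r, the receptor of glucagon-like peptide 1, measured 9.13, 7.10, 6.90 and 15.4 CPM against 69.8 and 38.6 (-2.50), with its highest AgRP value in replicate 4, and was not called without POMC replicate 1 (adjusted p = 0.0801). Ntsr1 (-1.50), Sstr1 (-1.47), Adra2a (-1.38), Oprk1 (-1.15), Drd2 (-1.06) and the cannabinoid receptor Cnr1 (-0.88) were lower as well. Of the 18 receptors called, 14 kept their call without any 1 library, and Glp1r, Oprk1, Drd2 and Cnr1 did not. The insulin receptor Insr was not called, at -0.28 (adjusted p = 0.194). With the 3 libraries against 1, the median of the feeding-related receptors was -0.35.

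Genes of leptin signalling and the Serpina3 cluster, protease inhibitors of which some respond to cytokines, are next. Over all genes 4.59% were higher and 2.88% lower. Of 18 leptin and STAT genes tested, Lepr, Stat3 (1.13), Ptpn2 (0.86) and Sbno2 (0.57) were higher and Jak2 was lower (-0.56), with a list median of 0.37. Stat3, the transcription factor downstream of the leptin receptor, measured 262, 209, 281 and 217 CPM against 114 and 106. It missed the threshold without either POMC library, at up to 0.0595, and Ptpn2, Sbno2 and Jak2 without any of 5 libraries, at up to 0.168, 0.169 and 0.107. Socs3, the feedback inhibitor of leptin signalling, was not called (0.55, adjusted p = 0.221).

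Of 5 Serpina3 genes tested, 4 were higher, where 4.59% of all genes were higher, with a list median of 1.68. Serpina3c measured 18.3, 10.6, 14.2 and 15.2 CPM against 0.844 and 0.797 (4.14 ± 0.29, adjusted p = 8.0704e-04). Serpina3i (2.14), Serpina3h (1.68) and Serpina3n (1.11) followed, and Serpina3g, at 1.20 (adjusted p = 0.0890), was not called. The calls of the last named were weaker, reaching an adjusted p of 0.0502 without POMC replicate 2 for Serpina3i, and up to 0.196 for Serpina3h and 0.104 for Serpina3n without any of 5 and 4 libraries. The Serpina3 genes lie in a cluster of near copies, so reads may be shared among them and the values of single members are uncertain.

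Genes of protein folding in the endoplasmic reticulum formed the list with the most calls in 1 direction. This compartment folds and cuts secreted proteins, and its chaperones and disulfide isomerases are made in larger amounts when the load of secreted protein is high. Of 31 genes tested, 18 were higher in the AgRP line (58.1%, against 4.59% of all genes) and none was lower, with a median of 0.71. Manf, a secreted stress protein of this compartment, measured 117, 96.7, 126 and 114 CPM against 43.4 and 35.9 (1.52 ± 0.15, adjusted p = 0.00239). Hspa5, the chaperone BiP, measured 972, 983, 1191 and 816 CPM against 445 and 373 (1.28 ± 0.21, adjusted p = 0.0131). Sec61b, part of the channel through which new chains enter, was higher by 1.60, Sdf2l1 by 1.42, the isomerase Pdia6 by 1.38, Creld2 by 1.31, Pdia3 by 1.08 and calreticulin (Calr) by 0.98. The regulators Ern1 (0.89), Atf4 (0.65) and Xbp1 (0.58) were higher, and Atf6 (-0.04), Eif2ak3 (-0.25) and Ddit3 (0.31) were not called. Genes that return misfolded proteins for degradation were not called either, among them Herpud1 (-0.41), Sel1l (-0.34), Edem1 (-0.35) and Derl2 (-0.18). The summed level of the list was lowest of its line in AgRP replicate 4, at 5774 CPM against 6375 to 7419 in the other AgRP libraries and 4194 and 3999 in the POMC libraries. With the 3 libraries against 1, the list's median was 0.63, and Herpud1 stood at -0.55. The 18 higher genes were counted with all 6 libraries. The count rests on single libraries: it was 5 without POMC replicate 2, 6 without POMC replicate 1, 7, 7 and 8 without AgRP replicate 1, 2 and 3, and 19 without AgRP replicate 4, with none lower in any, and 13 on library size alone. Manf, Sec61b, Sdf2l1 and Creld2 kept their call throughout. These counts have other baselines than 4.59%. Over all 13428 genes tested without AgRP replicate 4, 1384 were higher and 1677 lower, and on library size alone 489 were higher. The counts over all genes for the other left-out libraries are given above with the called genes.

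Among the fed libraries none of the 31 genes was called, where 143 genes (1.06%) were higher and 149 (1.11%) lower over all genes, and the list's median was 1.4910e-04. Scaled with the fed libraries, Manf measured 57.0, 62.7 and 55.1 CPM in the AgRP fed and 61.0 and 45.4 CPM in the POMC fed libraries. The AgRP line thus had a mean of 114 ± 12.3 (SD, n = 4) fasted and 58.3 ± 3.98 (n = 3) fed, and the POMC line 39.9 ± 5.34 (n = 2) fasted and 53.2 ± 11.0 (n = 2) fed. The test of the difference itself, the AgRP minus POMC gap in fasted minus that in fed mice, gave 1.39 ± 0.21 for Manf (adjusted p = 0.0539) and called no member of the list. Over all 13443 genes it called 11 larger (0.0818%) and 2 smaller (0.0149%). With line and replicate number as a block, it called 506 larger (3.76%) and 213 smaller (1.58%), including the 13. That block treats fed and fasted libraries of the same line and number as pairs, which the labels do not state. In that fit 18 of the 31 folding genes had a larger gap when fasted and none a smaller one, with Manf at 1.45 (adjusted p = 1.2385e-04), Hspa5 at 1.38 (5.5096e-04) and Pdia6 at 1.25 (5.1328e-04). Leaving out the fed and fasted libraries of any 1 replicate, 7 to 19 of the 31 were larger and none smaller, the 7 without POMC replicate 1 and the 19 without AgRP replicate 4. Without the block and without both replicates that stand apart no gene at all was called.

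**Figure D3:**
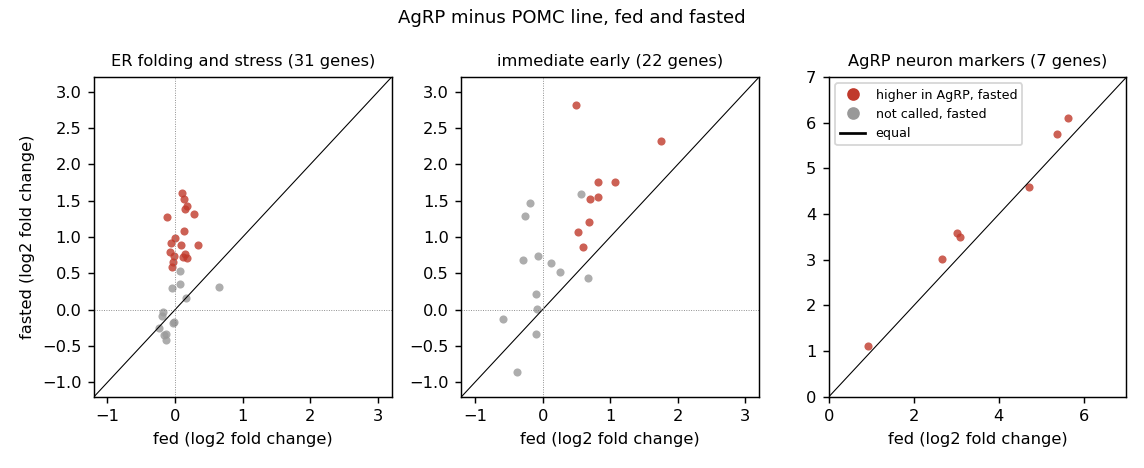
Log2 fold change, AgRP minus POMC line, in fasted (vertical) against fed libraries (horizontal) for 31 endoplasmic reticulum folding and stress genes, 22 immediate early genes and 7 AgRP neuron markers, with red points called in fasted libraries. The folding genes stand near 0 fed (median 1.4910e-04) and up to 1.60 fasted, while the AgRP neuron markers lie close to the line of equality.

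Immediate early genes are switched on by neurons within minutes of strong activity. Of 22 tested, 9 were higher in the AgRP line and none was lower, with a median of 0.97. Over all genes 4.59% were higher and 2.88% lower. Fos measured 36.1, 53.5, 43.9 and 39.4 CPM against 16.8 and 8.66 (1.76 ± 0.30, adjusted p = 0.0156), and Egr1 measured 75.0, 94.8, 57.6 and 78.2 CPM against 29.7 and 22.5 (1.55 ± 0.22, adjusted p = 0.00875). Atf3 (2.82), Btg2 (2.32), Fosl2 (1.75), Crem (1.52), Myc (1.21), Nr4a3 (1.07) and Jun (0.86) were the others, while Nr4a1 (1.59, adjusted p = 0.102) and Npas4 (1.47, adjusted p = 0.101) were not called. Leaving out 1 library gave 6 (without either POMC library) to 13 (without AgRP replicate 4) higher members and none lower, and Atf3, Btg2, Crem and Jun kept their call throughout. Fos was lost without POMC replicate 2 (adjusted p = 0.0582) and Fosl2 without POMC replicate 1 (0.0537). Over all 13428 genes tested without AgRP replicate 4, 1384 were higher and 1677 lower. The counts over all genes for the other left-out libraries are given above with the called genes. In fed libraries 2 of the list were higher, where 1.06% of all genes were higher, and the median was 0.38. With the replicate block the gap was larger when fasted for Atf3 (2.31), Fosb (1.67), Crem (0.93), Fosl2 (0.78) and Junb (0.53), and without it for none. In the fit with the block 3.76% of all genes had a larger and 1.58% a smaller gap.

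Single genes changed their gap more than these lists. Vgf had a mean of 1823 ± 375 CPM in AgRP fasted and 395 ± 46.1 in AgRP fed libraries, but 425 ± 26.5 in POMC fasted and 885 ± 316 in POMC fed libraries. Its gap was larger by 3.26 ± 0.36 when fasted (adjusted p = 0.0144), and by 3.18 with the replicate block (adjusted p = 1.6720e-04). Dpys, an enzyme of pyrimidine breakdown (3.45), Dusp5, a phosphatase of ERK kinases (2.61), 5033406O09Rik (2.58) and Nfkbiz, a nuclear inhibitor of NF-κB (2.47), followed. The clock gene Per3 moved the other way, at 22.1 CPM in AgRP fasted and 45.1 in AgRP fed libraries against 57.8 and 36.3 in the POMC line (-1.70, adjusted p = 0.0230), as did Ndrg1 (-0.95, adjusted p = 0.0477). These calls were lost without any 1 of several libraries, among them POMC fasted replicate 1 or 2, where no gene was called. With the replicate block Lyve1 went from a mean of 0.983 CPM fed to 27.7 CPM fasted in the AgRP line, against 0.510 and 0.910 in the POMC line (4.07, adjusted p = 9.2281e-04), and Sphk1 had the largest increase of the gap (4.67). Procr (3.85) and Fmod (3.61) also had larger gaps in that fit. The gap of Fmod rests on the fed POMC libraries, at 15.2 and 17.6 CPM, while its fasted difference was 0.37 (adjusted p = 0.778).

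For the markers of the lines no change of the gap was called without the block. Agrp went from a mean of 386 to 1335 CPM in the AgRP line and from 7.83 to 19.3 in the POMC line between fed and fasted mice, so that its gap differed by 0.48 ± 0.64 (adjusted p = 0.947), an error that leaves room for a change. Hsd11b2 stood at 71.9 CPM fed and 72.2 CPM fasted in the AgRP line, and its gap differed by 0.87 (adjusted p = 0.698). The gap of Lepr was larger by 1.56 when fasted (adjusted p = 0.396) and was called only with the replicate block (1.73, adjusted p = 0.00451). Of the 615 genes higher in fasted libraries 112 were also higher in fed ones, which is 18.2% of the fasted and 78.3% of the fed list. Of the 386 lower genes 99 were lower in both, 25.6% of the fasted and 66.4% of the fed list, and 0 genes were called in opposite directions. Among the genes tested in both states, 541 of 584 higher and 362 of 383 lower genes had the same sign when fed, and their medians were 1.07 fasted and 0.44 fed, and -0.93 fasted and -0.55 fed.

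Ion channels and receptors that set excitability differed between the lines gene by gene, where 4.59% of all genes were higher and 2.88% lower. Of 76 potassium channel genes tested, 9 were higher and 5 lower, with a median of -0.27. Kcnk9, a leak channel of the TASK group, measured 214, 206, 260 and 234 CPM against 39.9 and 68.8 (2.07 ± 0.24, adjusted p = 0.00419). Kcnj5, an inward rectifier opened by G proteins, was higher by 1.70, Kcnf1 by 1.54 and the leak channel Kcnk1 by 1.26, and Kcnk13 (-1.73) and Kcnj3 (-0.88) were lower. Of 53 sodium, calcium, HCN and TRP channel genes, 4 were higher and 8 lower (median -0.33). The higher ones included members of the TRPC family, Trpc6 at 31.6, 23.6, 27.0 and 24.9 CPM against 6.02 and 5.43 (2.22 ± 0.17, adjusted p = 0.00107), Trpc4 (1.42) and Trpc1 (0.72). Trpc7 (-1.48) and the T-type calcium channel Cacna1i (-0.93) were lower. The summed level of the potassium channel list was 4787, 4777, 4739 and 7289 CPM in the AgRP libraries against 5001 and 7677, so it was high in the same libraries as Slc1a2. With the 3 libraries against 1, the calls were 12 and 18 for potassium channels and 6 and 14 for the other channels, where 8.86% of all genes were higher and 10.2% lower. The medians were then -0.13 and -0.19. Of the 14 and 12 channels called, 5 (Kcnk9, Kcnj5, Kcnf1, Kcnv1 and Kcnk13) and 4 (among them Trpc6, Trpc4 and Trpc7) kept their call without any 1 library. Kcnk1 was lost without POMC replicate 1 (adjusted p = 0.0571), Cacna1i without POMC replicate 2 (0.0711), and Kcnj3 and Trpc1 without any of 5 libraries (up to 0.133 and 0.138).

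Receptors for fast transmitters gave 7 calls in all, where 4.59% of all genes were higher and 2.88% lower. Of 19 GABA and glycine receptor genes Gabre, the epsilon subunit, was higher (1.16) and none was lower (median -0.39), and of 25 glutamate receptor genes 2 were lower, among them Grin2d (-0.65), and none was higher (median -0.34). Of 15 nicotinic, purinergic and serotonin-gated channel genes P2rx5 (1.29) and P2rx4 (1.15) were higher and Htr3b (-1.95) and Chrna7 (-0.88) were lower. The calls named here were close to the threshold, and each was lost without at least 1 library, with adjusted p up to 0.126 for Gabre, 0.197 for Grin2d, 0.167 for P2rx5, 0.0575 for P2rx4, 0.109 for Htr3b and 0.143 for Chrna7. The sums of both main lists were highest in AgRP replicate 4 and POMC replicate 2 within their lines, at 4247 and 4454 CPM for GABA and glycine receptors against 2668 to 2806 and 3255 in the others. With the 3 libraries against 1, where 8.86% of all genes were higher and 10.2% lower, 3 GABA and glycine receptor genes were higher and 6 lower (median -0.30), and 2 glutamate receptor genes were higher and 7 lower (median -0.26). Without AgRP replicate 4 alone the counts were 2 and 7, and 0 and 9, where 1384 of all 13428 genes tested were higher and 1677 lower.

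Of 49 genes of axon guidance and adhesion, 3 were higher and 7 lower (median -0.56), where 4.59% of all genes were higher and 2.88% lower. Sema3a, a secreted guidance cue, was higher by 1.40 (83.0, 55.1, 79.5 and 66.7 CPM against 26.5 and 27.3), Sdk2 by 1.13 and Efnb2 by 1.02. Cdh13, a cadherin without a transmembrane domain, was lower (75.9, 88.8, 78.0 and 65.8 CPM against 233 and 196; -1.47 ± 0.14, adjusted p = 0.00199), and so were Slit1 (-1.11), Plxnc1 (-1.05) and the semaphorin co-receptor Nrp2 (-1.02). Sema3a was lost without POMC replicate 1 (adjusted p = 0.0549), Sdk2 without either POMC library (up to 0.0917), Nrp2 without any of 4 libraries (up to 0.113) and Plxnc1 without any of 5 (up to 0.136). With the 3 libraries against 1, the list's median was -0.39.

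Of 76 ribosomal protein genes tested, 8 were higher and none lower, where 4.59% of all genes were higher and 2.88% lower. The list's median was 0.50, with 72 of 76 above 0. On library size alone the median was 0.57 and 75 were above 0. Rps21 (1.22), Rpl30 (0.94), Rps27l (0.93) and Rplp2 (0.90) had the largest differences among those called, and each was lost without any of 4 or 5 libraries, at up to 0.177. The count of higher members was 11 without AgRP replicate 1, 0 without replicate 2, 0 without replicate 3, 16 without replicate 4 and 1 without either POMC library, with none lower in any. AgRP replicate 1, with a summed level of 2658 CPM, lay below both POMC libraries (2825 and 2820), whereas AgRP replicates 2 to 4 lay between 3955 and 4337, so the lines overlap in this sum. The list's median among fed libraries was 0.19.

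The genes around Agrp and Pomc were compared, although the sources used here do not say where each Cre is inserted. Within 200 kb of Agrp (chr8:105566695-105579845) 12 genes were tested, Agrp included. Hsd11b2 lies 42.7 kb away (chr8:105518746-105523988), and between it and Agrp lies Atp6v0d1, a subunit of the vacuolar proton pump, 0.6 kb from Agrp and higher by 0.99 (adjusted p = 0.0368). Tppp3, 95.3 kb away, was lower (55.7, 65.4, 62.6 and 47.6 CPM against 177 and 122; -1.37, adjusted p = 0.00667), and the others, such as Zdhhc1 (0.04) and Ctcf (0.14), were not called. Around Pomc (chr12:3954945-3960643) none of 5 neighbours tested was called, with the nearest, Efr3b at 1.9 kb, at -0.57 (adjusted p = 0.0703). The libraries do not mark strand, so reads from overlapping genes cannot be told apart by it.

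Chromatin of sorted nuclei gave a readout that did not use these RNA libraries. AgRP-positive nuclei were compared with AgRP-negative nuclei of the arcuate nucleus, which are a mixture and not POMC neurons. The study sorted both kinds from the same pooled samples, but the calls here come from a fit without that pairing. The feeding state of those mice is not given in the labels used here. Of 66560 peaks tested, 15926 (23.9%) were higher and 10405 (15.6%) lower in AgRP-positive nuclei. On library size alone, which moved the median of all peaks by 0.16, there were 18225 and 7296. With replicate number as a block, which pairs the sorted kinds, 17237 were higher and 11573 lower. Total counts in peaks ran from 8685497 to 11177208. A promoter peak was one within 1 kb of an annotated transcript start (GENCODE vM21). Of the 615 genes higher in AgRP RNA 565 had such a peak, and in 106 of them (18.8%) a promoter peak was higher and in 47 (8.32%) lower. Of the 386 lower genes 326 had a peak, with 24 (7.36%) higher and 99 (30.4%) lower. Over all 11849 genes with a promoter peak these shares were 5.17% and 15.3%. A gene counted if any of its promoter peaks was called. The promoter peak with the highest level had a median difference of -0.10 for higher, -0.29 for lower and -0.20 for all genes.

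The Agrp promoter peak (chr8:105567432-105568470) had 7.02 and 8.89 CPM in the AgRP-negative and 83.5 and 83.5 CPM in the AgRP-positive libraries, a difference of 3.39 (edgeR adjusted p = 1.5677e-77). The Npy peak (chr6:49822319-49822966), which covers the printed promoter, had 4.06 and 2.96 CPM against 25.9 and 22.2 (2.77). Promoter peaks of Lyve1 (3.74), Serpina3c (2.55), Corin (2.07), Otp (1.65), Vipr1 (1.49), Lepr (1.41), Ghsr (1.40) and Acvr1c (1.26) were higher too. Not every promoter peak of such genes was. Of the genes with higher RNA, 106 had a higher and 47 a lower promoter peak. The latter included Nr3c1 (-0.62), Sgk1 (-0.64), Sbno2 (-0.86, beside another peak at 2.19) and Stat3 (-1.05). A second peak within 1 kb of a transcript start that GENCODE gives for Agrp (chr8:105636047-105637488) was lower (-0.61, edgeR adjusted p = 1.0747e-05). That peak covers 1 end of Ctcf (chr8:105636474-105682922), a gene 56.6 kb from Agrp in RefSeq, so it is not a readout of Agrp alone. Second peaks of Vipr1 (0.47) and Acvr1c (0.12) were not called, and neither were those of Klf14 (0.33), Ghr (-0.22) and Sphk1 (1.41, 0.04 and -0.57). Hsd11b2, the gene with the largest RNA difference, had a promoter peak of 14.9 and 18.1 CPM in negative against 17.6 and 20.5 CPM in positive nuclei, which was not called (0.21, adjusted p = 0.396). On the POMC side the 3 promoter peaks of Nkx2-1 were lower in AgRP-positive nuclei (-1.03, -1.24 and -1.60). Those of Sox3 (-0.21), Prokr1 (0.44), Cartpt (0.64 and -0.42), Nppc (-0.14), Npy1r (-0.35) and Glp1r (0.28) were not called. Of the genes with lower RNA, 99 had a lower and 24 a higher promoter peak, Htr3b (2.46) and Cacna2d1 (0.87) among the latter. The peak over the printed Pomc promoter was low in all libraries, at 0.985 and 0.592 CPM in negative and 3.02 and 1.67 CPM in positive nuclei. Its difference was 1.55 (edgeR adjusted p = 0.0590, and 0.0301 with the replicate block). It thus passed the threshold for a higher peak only in the paired fit.

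The motifs marked in the printed promoters were counted in all promoters of the same length. RefSeq windows were found for 466 genes higher, 259 genes lower and 9914 of all genes tested. CATCTG occurred in 12.0% of the promoters of higher genes, 18.1% of those of lower genes and 13.8% of all. TAATTA occurred in 1.93%, 4.63% and 3.29%, TATAAA in 12.4%, 12.0% and 8.62%, TGACGTCA in 3.86%, 1.93% and 3.59%, and TTCNNNGAA in 10.7%, 5.79% and 8.23%. These shares are descriptions of letters in a window, and a missing match says only that the letters are not in it.

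**Figure D4:**
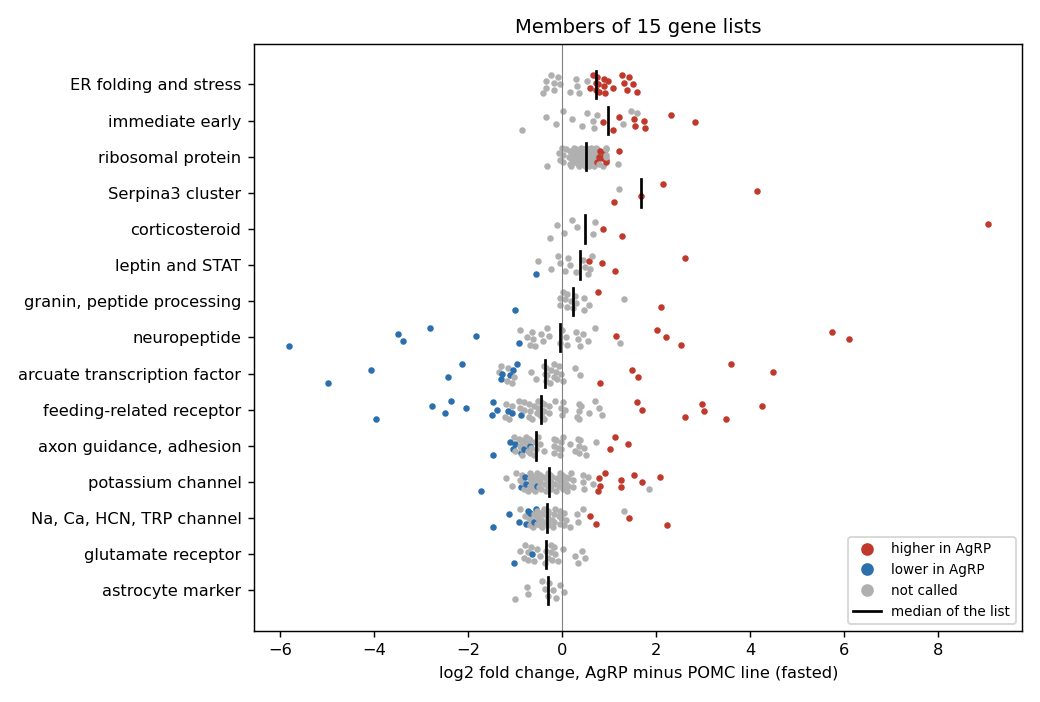
Log2 fold change, AgRP minus POMC line, of each tested member of 15 gene lists in fasted libraries, with red points called higher, blue points called lower, grey points not called and a black bar at each median. The endoplasmic reticulum list (median 0.71) has 18 red and no blue points, while neuropeptides, transcription factors and receptors spread to both sides.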

How the data were processed

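Counts per gene were deposited by the authors as whole numbers for 17 RNA libraries. Reads of ribosome-bound, rRNA-depleted RNA were aligned to mm10 with HISAT2 and counted with featureCounts of Subread over an annotation altered to lessen overlaps. ATAC-seq counts per peak were likewise deposited by the authors (Bowtie2, MACS2, bedtools). Versions are not given in the sources used here. Nextera XT libraries do not mark strand.

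Genes with a mean CPM over 1 were scaled by TMM and fitted with edgeR 4.0.16 (quasi-likelihood, R 4.3.3) on the 6 fasted libraries, called at a Benjamini-Hochberg adjusted p below 0.05 and a log2 fold change beyond 0.5. Fed libraries, the fasted minus fed gap (11 libraries, 1 model) and peaks were fitted alike. Replicates of a line came from separate pools of 4 arcuate nuclei where the labels say so, and p-values otherwise measure the spread between libraries. No pair of fasted libraries held identical counts. Fed and fasted libraries of the same line and number deviated together (correlations from 0.698 to 0.746 in all 5 pairs), so the gap is also given with line and number as a block. The labels do not state that numbers pair fed with fasted pools. With 2 POMC libraries per state, the POMC pairs share a single value by construction (0.726). Libraries of different lines reached 0.643 (AgRP fasted replicate 4 with POMC fed replicate 2), so these correlations cannot show shared pools. The number of libraries limits the precision.

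The comparison, the gene lists and the genes named were chosen with earlier results of these data known. Named were the 10 called genes of largest difference in each direction, genes the study names for either neuron type, up to 4 called members of each list per direction, the 5 genes of largest gap change per direction, and further members of the lists chosen after their values were seen. Lists covered AgRP, POMC and other arcuate neuron markers, astrocyte, oligodendrocyte, microglial, tanycyte, vascular and pituitary markers, transcription factors, neuropeptides, granins, transmitters, feeding-related receptors, Serpina3, corticosteroid, leptin, immediate early, endoplasmic reticulum and ribosomal genes, adhesion genes, ion channels and fast receptors. Glipr1, Kiss1, Tac1 and Penk, listed as markers or peptides, were not analysed here, nor was whole arcuate RNA. Some genes counted in the lists are not reported here by name. Tested on simulated counts of the fasted design (13325 genes), the fit recovered 55 changed genes at a log2 fold change of 1 and 97 at 2, of 196 changed genes of both sizes together, with 3 false calls. The simulated libraries varied independently and none stood apart as AgRP replicate 4 and POMC replicate 2 do, so these figures need not hold for the data. Alternatives were library size alone, other size factors, filters, DESeq2 1.42.0, limma-voom (limma 3.58.1), a replicate block, all 17 libraries and leaving out libraries.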

Additional observations from a re-analysis of the deposited data

Results flagged for a closer look

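Within the 4 AgRP fasted libraries, 11 of 139 levels tested had a single library far from the other 3, by a Dixon ratio (its gap to the nearest library over the whole range) above the 95% critical value. Chance alone flags about 1 in 20 such groups. In 10 of them replicate 4 was the high library, the ratio being 0.971 for the astrocyte marker sum, 0.918 for microglia, 0.863 for tanycytes and ependyma, 0.981 for potassium channels, 0.884 for sodium, calcium, HCN and TRP channels, 0.912 for GABA and glycine receptors, 0.917 for glutamate receptors, 0.835 for axon guidance and adhesion, 0.927 for Cspg4 and 0.910 for Plxnc1. For Fmod the ratio was 0.962 and replicate 3 was the high library, at 9.82 CPM against 1.68 to 1.99 in the others.

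The AgRP minus POMC gap differed between fasted and fed mice by a test of the difference itself (edgeR, adjusted p below 0.05) for Vgf (3.26), Dpys (3.45), Dusp5 (2.61), 5033406O09Rik (2.58) and Nfkbiz (2.47), which had larger gaps when fasted, and for Per3 (-1.70) and Ndrg1 (-0.95), which moved in the opposite direction. Vgf was higher in AgRP than in POMC libraries when fasted (2.10), and its fed difference of -1.16 was not called (adjusted p = 0.0821).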

How the results depend on the processing

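With 2 POMC libraries, counts of calls moved widely. The fasted comparison gave 615 higher and 386 lower genes, and 227 lower on library size alone, 1032 and 648 with DESeq2, 1075 and 716 with all 17 libraries in the fit, 215 and 99 when tested against a fold change of 0.5, 1187 and 1368 without AgRP replicate 4 and POMC replicate 2, and 989 and 949 with that pair of libraries as a term (the last pair of settings chosen after seeing the data). Without AgRP replicate 4, alone or with POMC replicate 2, and with the replicate block, lower genes outnumbered higher ones. With both of these libraries left out the medians of microglial genes (-0.33 to 0.23), transmitter genes (-0.22 to 0.07) and neuropeptides (-0.05 to 0.32) changed sign. Leaving out 1 library gave 244 to 1384 higher and 91 to 1677 lower genes. Pairing the lines by number as a replicate block gave 657 and 724, although the labels do not state that numbers pair the lines. Deviations of the 2 lines correlated at 0.306 for number 1 and -0.160 for number 2. The deviations of the 2 POMC libraries mirror each other by construction, so these values cannot show whether the numbers pair the lines. The fed comparison gave 326 and 329 with DESeq2, and 22 to 151 and 12 to 140 without 1 library. A replicate block could not be fitted there, since the lines share only number 1. The gap gave 11 larger and 2 smaller genes, 4 and 1 on library size alone, 1 smaller without a filter, 131 and 43 with DESeq2, 506 and 213 with the replicate block, 0 and 0 without the replicates that stand apart, and 0 to 45 and 0 to 8 without 1 library. With the block and without any 1 pair of fed and fasted libraries, chosen after seeing the data, the gap gave 141 to 689 and 9 to 482. Peaks without 1 library numbered 10707 to 14163 higher and 6108 to 8528 lower. Of 113 genes named by rule, 57 kept their side of the threshold under all 19 alternatives that could test them, and 52 called ones lost it without 1 library. Only Fmod turned, from 0.37 to -0.63 with the replicate block and, leaving out 1 library, to values from -0.70 (without AgRP replicate 3) to 0.74, and it was not called in any. The cause of these changes was not tested. A gene that was not called is not shown to be equal.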

Other observations

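Within the gap fit with the replicate block, chosen lists other than those described also held members whose AgRP minus POMC difference was larger after the fast. Of 17 granin and peptide processing genes 7 had a larger gap, where 3.76% of all genes had a larger and 1.58% a smaller one, among them the granin Scg2 (1.31, edgeR adjusted p = 7.0048e-04), the prohormone convertase Pcsk1 (0.70, adjusted p = 0.0126) and the amidating enzyme Pam (0.58, adjusted p = 0.0143), besides Vgf. Among neuropeptide genes Nts (2.30), Prok2 (2.23), Sst (0.91) and Nucb2 (0.68) had larger gaps, and among leptin and STAT genes Asb4 (1.81, adjusted p = 0.00110) did, besides Lepr and Stat3. Nts went from a mean of 6.39 CPM fed to 34.0 CPM fasted in the AgRP line, against 5.54 and 5.86 CPM in the POMC line. Without the block only Vgf of these genes was called. Of feeding-related receptors 6 had a larger and 6 a smaller gap with the block.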
